A study of Mus musculus with 6 samples.

Results

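Transcripts of 37 mouse genes for cholesterol synthesis, fatty acid synthesis and their control by SREBP (sterol regulatory element-binding protein) transcription factors were followed in the A20 B cell lymphoma line, out of 27179 genes counted by RNA-seq. The genes were taken from a fixed list of symbols matched to the gene identifiers of the counts, with no cut on their levels. The list was chosen with earlier results of these data known, so it is not independent evidence. All 37 genes were found and passed the filter on low counts. They comprised 18 genes of sterol synthesis, 5 of SREBP control, 6 of cholesterol transport and export and 8 of fatty acid synthesis. The 6 libraries formed 3 groups with 2 independently repeated samples each. Wild-type A20 cells, a line of BALB/C origin, carried no vector. Control sgRNA cells carried the lentiviral TETact-v3 system with a non-targeting sgRNA, and Cd4 sgRNA cells carried the same system with an sgRNA to the promoter of Cd4, a T cell surface receptor that B cells do not normally make. In TETact-v3, a catalytically dead Cas9 with SunTag epitopes draws in the demethylating domain of TET1, and MS2 aptamers in the sgRNA draw in the activator p65-hsf1. All groups were grown in RPMI medium with foetal calf serum, and polyA RNA was sequenced. All results thus stand for a single cell line, and the wild-type cells differ from both others by transduction as well as by the activator.

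Cholesterol is built from acetyl-CoA by way of mevalonate, farnesyl pyrophosphate, squalene and lanosterol. When sterols in the endoplasmic reticulum are scarce, the escort protein SCAP carries SREBP precursors to the Golgi, where proteases release a fragment that enters the nucleus and switches on genes of sterol and fatty acid synthesis. When sterols are plentiful, INSIG proteins hold SCAP back, and oxysterols activate LXR receptors, which switch on export genes such as Abca1. Proliferating lymphocytes draw on sterol and fatty acid synthesis for new membranes.

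Counts per library ranged from 23194920 to 121623410, and 12430 genes were tested. Levels are given as CPM, counts scaled to the library size after TMM normalization, and fold changes are on the log2 scale with their standard error (SE). The targeted gene followed the labels, since Cd4 stood at 945 and 913 CPM in the Cd4 sgRNA libraries and at 0.794 to 1.53 CPM in the other 4. All 8 B cell markers examined were present in every library. The T cell markers Cd3e and Cd8b1 had no count in any library, and of 2 T cell markers that could be tested Cd2 was lower in both transduced groups against wild type. Of the 6 macrophage markers, Cd68 was at 231 to 294 CPM, Adgre1 at 0.981 to 4.60 CPM and Itgam at 0.153 to 1.58 CPM, while Csf1r, Lyz2 and Marco stayed at or below 0.185 CPM, and 0 of 3 tested macrophage markers passed in any comparison in edgeR's test, at an unadjusted p under 0.05 or in DESeq2. The control sgRNA libraries differed from each other far more than the other pairs did. The median absolute log2 difference of the 37 genes between replicates was 0.289 in control sgRNA cells, against 0.0663 in wild-type and 0.0979 in Cd4 sgRNA cells, and over all tested genes it was 0.259, 0.0808 and 0.0835 in the same order. Of the 37 genes, 28 were higher in control sgRNA replicate 2 than in replicate 1, and 10 differed between them by more than 0.5. Mitochondrial genes took 2.65% and 2.69% of counts in wild type, 5.96% and 6.90% with Cd4 sgRNA and 6.63% and 11.5% with control sgRNA. Every transduced library thus lay above wild type, and the part of this in the comparisons with wild type was not tested. Since the tests pool the spread of all 3 groups, this pair set much of the error, and the leading counts are also given without each control sgRNA library.

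Promoter sequences were available for 28 of the 37 genes, as 36 promoters of 300 bases (250 before and 50 after the annotated start) in RefSeq of build GRCm38.p6. Sqle, Fdps, Fdft1, Stard4, Npc1, Abcg1, Scd1, Scd2 and Fads1 had none and were not searched. They were searched on both strands for the core of the sterol regulatory element (TCACNCCAC), the CCAAT box, the GC box (GGGCGG), the E-box (CACGTG) and the DR4 element of LXR receptors. The first of these occurred in 1 of 36, the promoter of Hmgcs1, which is 2.78% against 1.24% of all 32851 promoters of the same length. CCAAT occurred in 23 of 36 (63.9% against 37.4% of all promoters), GGGCGG in 28 (77.8% against 35.7%) and CACGTG in 7 (19.4% against 7.15%). The exact DR4 letters occurred in 0 of 36 and in 5 of all 32851 (0.0152%). So rare a match cannot show whether the 36 promoters hold a looser form of the DR4 element. Nor can a search for exact letters show whether they hold looser forms of the sterol element. These are matches of letters and not sites of binding, and alternative starts of a gene can share bases. The promoters of Hmgcs1, Msmo1, Insig1 and Abca1 are printed below, 5′ to 3′ on the gene's strand, to set the only promoter with the sterol element beside a sterol synthesis gene, a feedback gene and an export gene that the results below return to. They were chosen after the values were seen. Capitals mark TCACNCCAC, CCAAT (read as ATTGG on the other strand) and CACGTG.
Hmgcs1 (chr13:119690101-119690400, plus strand): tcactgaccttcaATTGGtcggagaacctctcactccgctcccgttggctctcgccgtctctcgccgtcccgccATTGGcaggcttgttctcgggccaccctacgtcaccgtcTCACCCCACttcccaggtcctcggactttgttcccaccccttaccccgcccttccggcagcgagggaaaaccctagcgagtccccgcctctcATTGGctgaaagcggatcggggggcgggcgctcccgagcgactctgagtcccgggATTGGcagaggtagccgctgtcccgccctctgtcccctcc
Msmo1 (chr8:64733529-64733828, minus strand): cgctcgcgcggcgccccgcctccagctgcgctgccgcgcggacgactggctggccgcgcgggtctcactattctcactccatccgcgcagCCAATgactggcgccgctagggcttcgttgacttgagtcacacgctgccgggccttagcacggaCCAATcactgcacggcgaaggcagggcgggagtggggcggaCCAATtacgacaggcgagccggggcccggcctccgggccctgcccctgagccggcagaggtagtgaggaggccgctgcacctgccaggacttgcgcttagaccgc
Insig1 (chr5:28071162-28071461, plus strand): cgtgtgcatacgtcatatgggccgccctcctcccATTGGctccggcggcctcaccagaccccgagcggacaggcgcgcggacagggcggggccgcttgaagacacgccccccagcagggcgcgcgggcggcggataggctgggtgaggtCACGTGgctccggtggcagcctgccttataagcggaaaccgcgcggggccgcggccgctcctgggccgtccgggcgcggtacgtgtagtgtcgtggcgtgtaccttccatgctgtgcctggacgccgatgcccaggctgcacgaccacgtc
Abca1 (chr4:53159846-53160145, minus strand): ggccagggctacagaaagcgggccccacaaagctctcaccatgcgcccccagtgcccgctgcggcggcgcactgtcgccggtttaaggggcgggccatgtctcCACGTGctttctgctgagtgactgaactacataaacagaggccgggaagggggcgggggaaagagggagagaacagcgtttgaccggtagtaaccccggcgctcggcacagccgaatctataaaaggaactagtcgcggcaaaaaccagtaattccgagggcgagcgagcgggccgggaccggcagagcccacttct
The Hmgcs1 promoter held the sterol element 137 bases before the start, written as -137, and 4 CCAAT boxes, of which 3 lay before the start. Msmo1 had 3 CCAAT boxes, at -160, -96 and -55, and no E-box. Insig1 had a CCAAT box at -216 and an E-box at -101, and Abca1 had an E-box at -147 and no CCAAT box.

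In wild-type A20 the pathway was well expressed for most of its length, with transport genes lower. Per kilobase of counted gene length, 31 of the 37 genes lay above the median of all tested genes (9.85 CPM per kb). Scd2, a stearoyl-CoA desaturase that introduces the double bond of oleate, was at 359 CPM per kb and above 98.5% of tested genes. Fdps, which makes farnesyl pyrophosphate, followed at 303 CPM per kb, and the transcription factor gene Srebf2 at 257 CPM per kb. The other end held the oxysterol-linked genes Mylip (4.05 CPM per kb) and Abcg1 (2.64 CPM per kb) and the fatty acid desaturase gene Fads2 (0.881 CPM per kb, above 17.8% of tested genes). Within the sterol pathway the range ran from Fdps down to Hsd17b7 (5.15 CPM per kb), a reductase of the late steps.

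**Figure D1:**
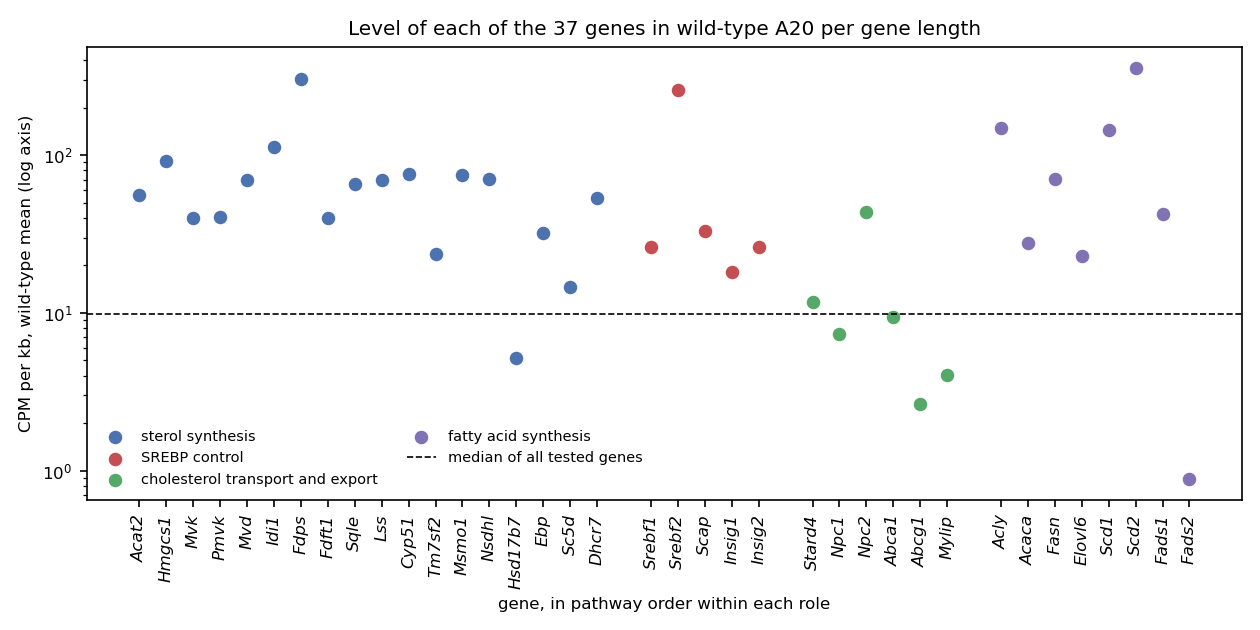
Mean level of each gene in the 2 wild-type A20 libraries, in CPM per kb of counted length on a log axis, grouped and coloured by role. Of the 37 genes, 31 lie above the dashed median of all tested genes at 9.85 CPM per kb, and Fads2 lies lowest at 0.881 CPM per kb.

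Within pairs of related genes the per-length ratio was steady in wild-type cells and moved in different ways in the transduced cells. Srebf2 exceeded Srebf1 9.51-fold and 10.1-fold in the wild-type libraries, 6.27-fold and 5.91-fold in the Cd4 sgRNA libraries, and 6.76-fold and 10.1-fold in the control sgRNA libraries. The ratio of Scd2 to Scd1 stayed between 2.42 and 2.87 in all 6 libraries, although any reads shared between these related paralogues may be split uncertainly. The annotated span of 15 of the 37 genes overlaps another gene. Fads1 exceeded Fads2 42.8-fold and 54.1-fold in wild-type libraries and 174-fold to 488-fold in the 4 transduced ones. Insig1 stood below Insig2 everywhere, at 0.530 to 0.863 of its per-length level.

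Against wild-type cells, control sgRNA cells had 8 of the 37 genes higher (21.6%, against 14.5% of all tested genes) and 3 lower (8.11%, against 13.5%), while 26 did not pass the threshold of an adjusted p under 0.05. The higher genes were Sqle, Msmo1, Fdft1, Hsd17b7, Srebf1, Insig1, Stard4 and Acaca, and the lower ones Abca1, Mylip and Fads2. Cd4 sgRNA cells, compared with the same wild-type libraries, had 4 genes higher (10.8%, close to the 9.84% of all tested genes) and 9 lower (24.3%, against 10.7%), with 24 not past the threshold. Sqle, Srebf1, Acaca and Fasn were higher there, and Mvk, Fdps, Nsdhl, Abca1, Mylip, Acly, Scd1, Scd2 and Fads2 lower. The 2 comparisons share their wild-type libraries. When either wild-type library was left out, wild type rested on 1 library and nearly all these calls were lost. The share of all tested genes in those fits is not given, so the loss cannot be read as particular to the 37 genes. Without control sgRNA replicate 1 the control sgRNA comparison with wild type had 16 genes higher and 10 lower (33.0% and 31.2% of all tested genes), and without replicate 2 it had 11 higher and 16 lower (30.4% and 29.5%). The Cd4 sgRNA comparison with wild type had 7 higher and 21 lower without control sgRNA replicate 1 (32.4% and 26.9% of all) and 7 higher and 22 lower without replicate 2 (30.7% and 29.0%). With only the 2 groups compared, the control sgRNA cells had 1 higher and 3 lower (6.62% and 5.82% of all) and the Cd4 sgRNA cells 7 higher and 22 lower (31.2% and 30.6%). DESeq2 called 10 higher and 5 lower in control sgRNA (17.6% and 15.7% of all) and 5 higher and 14 lower in Cd4 sgRNA cells (14.0% and 14.6%). Both control sgRNA libraries lay above both wild-type ones in 12 genes and below them in 16 (32.4% and 43.2%, against 33.3% and 33.8% of all tested genes), and both Cd4 sgRNA libraries in 7 and 24 (18.9% and 64.9%, against 40.4% and 39.3%). In bulk RNA, fewer cells with a transcript and less of it per cell cannot be told apart.

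Between Cd4 sgRNA and control sgRNA cells, 0 of the 37 genes passed the threshold in edgeR's test in either direction, where 0.0241% of all tested genes were higher and 0.0483% lower. At an unadjusted p under 0.05, 14 were lower (13.6% of all tested genes) and 1 was higher (11.3%). DESeq2 called 9 lower (24.3%, against 7.09% of all tested genes) and 0 higher (against 4.25%), and voomLmFit of limma called 0 in both directions. The 9 were Hmgcs1, Pmvk, Fdps, Fdft1, Msmo1, Insig1, Insig2, Stard4 and Scd2. In 20 of the 37 genes both Cd4 sgRNA libraries lay below both control sgRNA libraries (54.1%, against 30.2% of all tested genes), and in 5 they lay above both (13.5%, against 29.5%). Without control sgRNA replicate 1, 22 genes passed as lower and 6 as higher (30.9% and 30.3% of all). Without replicate 2 the counts were 14 and 1 (12.8% and 12.1% of all). A gene that missed the threshold is not shown to be the same in both groups.

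Of 11 tested markers of low oxygen, 9 rose in control sgRNA cells against wild type in edgeR's test (81.8%, against 14.5% of all tested genes). In Cd4 sgRNA cells against wild type, 2 were lower (18.2%, against 10.7%). Against control sgRNA cells, 1, Slc2a1, was lower in Cd4 sgRNA cells (9.09%, against 0.0483% of all tested genes). The median change there was -1.24. DESeq2 called 10 of the 11 markers lower (7.09% of all), and all 11 were lower at an unadjusted p under 0.05 (13.6% of all). Their median log2 difference from the wild-type mean was 1.12 and 1.37 in the control sgRNA libraries and 0.07 and -0.16 in the Cd4 sgRNA libraries. Their summed level was 5541 and 5832 CPM in wild-type, 4921 and 5832 CPM in control sgRNA and 4013 and 3531 CPM in Cd4 sgRNA libraries. Most of this sum was Ldha, at 4289.6 and 4577 CPM in wild-type and 3425 and 3713 CPM in control sgRNA libraries. Ldha (-0.31, SE 0.11) and Pgk1 (-0.39, SE 0.22) were the markers below wild type in control sgRNA cells, and neither passed there in edgeR's test. Of 8 B cell markers, 4 were lower against wild type in each kind of transduced cell (50.0%, against 13.5% of all tested genes in control sgRNA and 10.7% in Cd4 sgRNA cells), and their summed level was 2168 and 2167 CPM in wild-type, 1347 and 1585 CPM in control sgRNA and 1379 and 1321 CPM in Cd4 sgRNA libraries. Both lists moved beside the lipid genes below, and their part in those results was not tested.

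**Figure D2:**
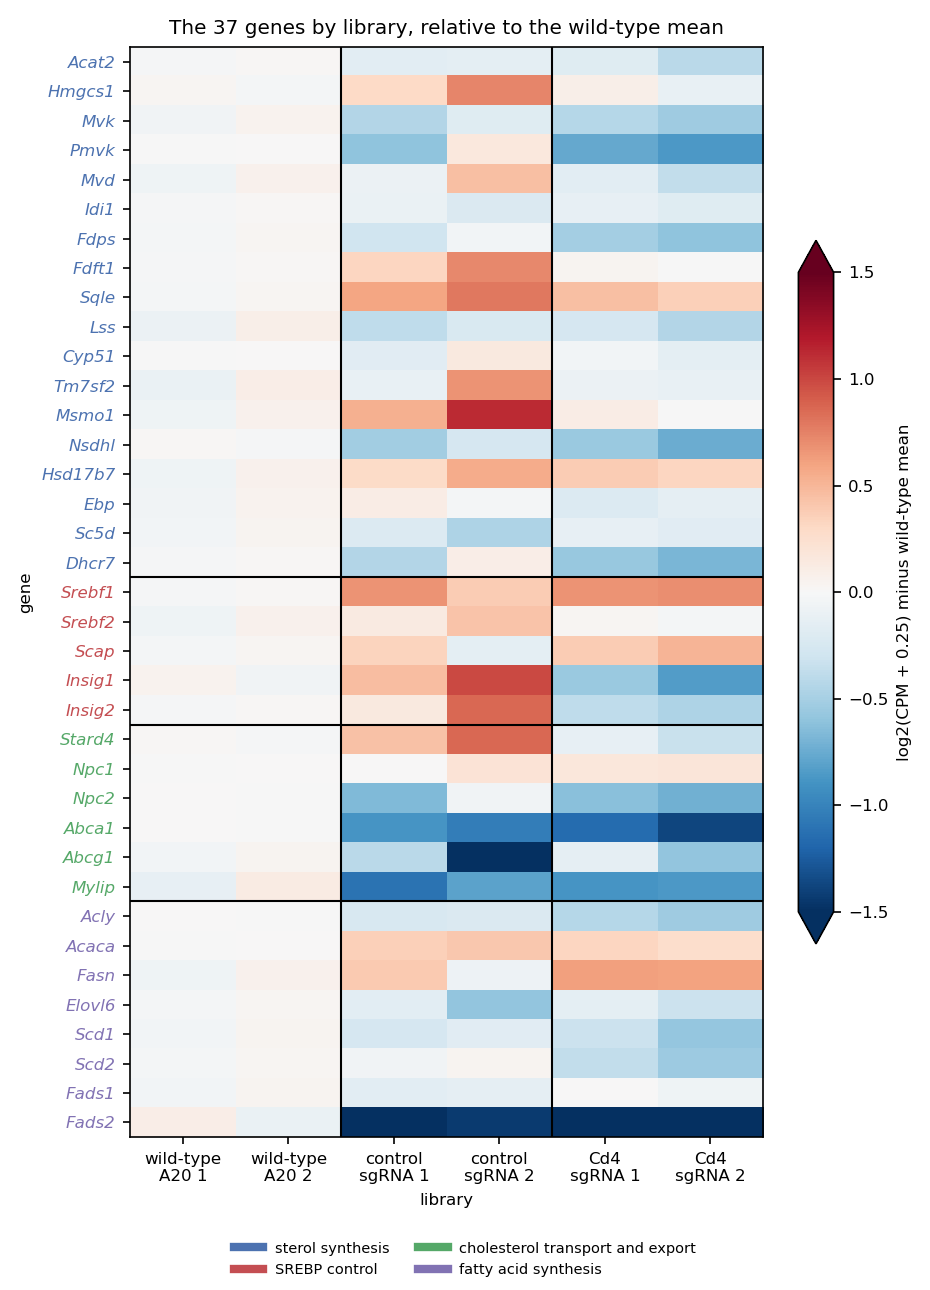
Log2(CPM + 0.25) of each of the 37 genes in each library minus the mean of the wild-type libraries, with genes in rows by role and libraries in columns (red higher, blue lower, colours end at 1.5 either way). Msmo1, Insig1 and Insig2 are reddest in control sgRNA replicate 2, and Abca1, Mylip and Fads2 are blue in all 4 transduced libraries.

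**Figure D3:**
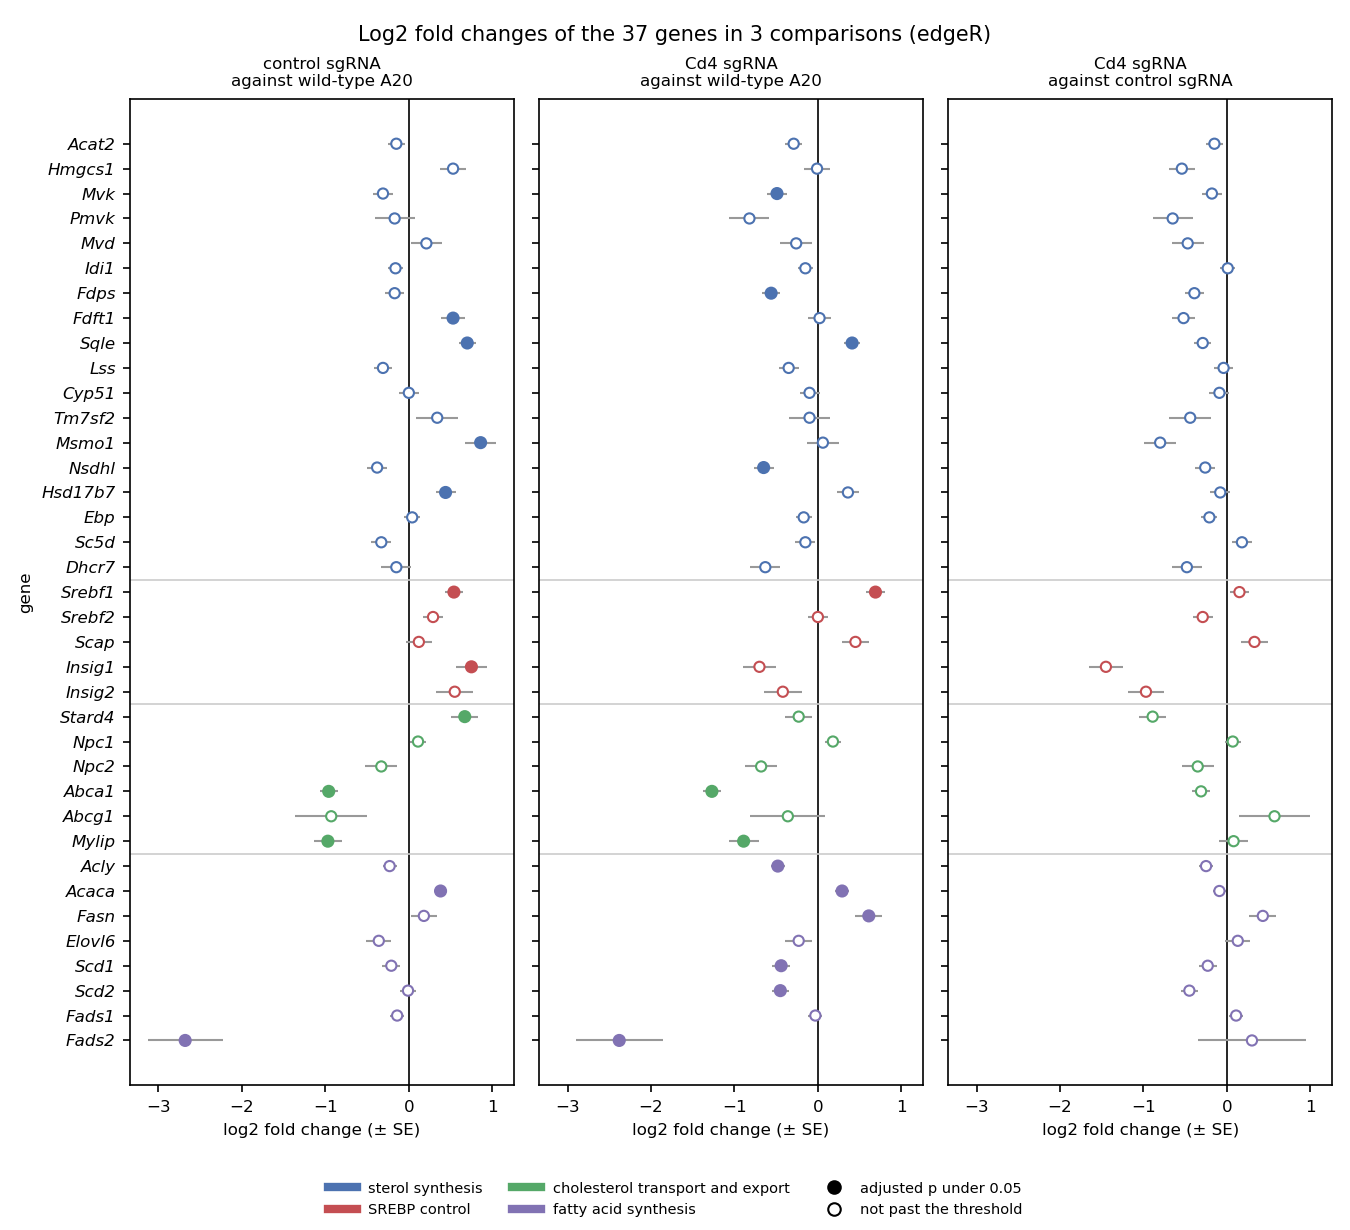
Log2 fold change with its standard error for the 37 genes in each comparison (edgeR), filled where the adjusted p is under 0.05. The left panel has 8 filled points above 0 and 3 below, the middle panel 4 and 9, and the right panel none, where Insig1 lies lowest at -1.45.

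Sterol synthesis genes did not all move in the same direction. Their median log2 fold change was -0.08 in control sgRNA and -0.16 in Cd4 sgRNA cells against wild type, where all tested genes had medians of -0.00 and 0.00. Of the 18, control sgRNA cells had 4 higher and 0 lower (22.2% and 0%, against 14.5% and 13.5% of all tested genes), and Cd4 sgRNA cells 1 higher and 3 lower (5.56% and 16.7%, against 9.84% and 10.7%). In control sgRNA cells 5 were higher and 4 lower at an unadjusted p under 0.05, against 2714 and 2576 of all 12430 tested genes. DESeq2 called 5 higher and 1 lower there (17.6% and 15.7% of all). In Cd4 sgRNA against control sgRNA cells the median was -0.28 (all tested genes -0.01), with 16 of the 18 below 0. There 0 passed the threshold in edgeR's test. At an unadjusted p under 0.05, 8 were lower (13.6% of all tested genes) and 0 higher (11.3%). DESeq2 called 5 lower (7.09% of all) and 0 higher (4.25%). By library, the median difference from the wild-type mean was -0.13 and 0.13 in the control sgRNA libraries and -0.14 and -0.18 in the Cd4 sgRNA libraries, so the values of the control sgRNA replicates lay on either side of wild type. Summed over the 18 genes, the level was 2824 and 2918 CPM in wild-type, 2786 and 3426 CPM in control sgRNA, and 2595 and 2386 CPM in Cd4 sgRNA libraries.

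Sqle encodes squalene epoxidase, an early oxygen-requiring step, and lies at chr15:59315092-59331193. It was at 176 and 185 CPM in wild-type, 273 and 313 CPM in control sgRNA, and 247 and 232 CPM in Cd4 sgRNA libraries. All 4 transduced libraries exceeded both wild-type ones, and Cd4 sgRNA lay below control sgRNA without overlap. The change against wild type was 0.70 (SE 0.10, adjusted p = 0.0061) in control sgRNA and 0.41 (SE 0.10, adjusted p = 0.036) in Cd4 sgRNA cells. Between the transduced groups it was -0.29 (SE 0.100, adjusted p = 0.17).

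Msmo1, a methylsterol oxidase that removes methyl groups from lanosterol derivatives (chr8:64718123-64733578), had its high values in the control sgRNA libraries. It was at 131 and 143 CPM in wild-type, 198 and 298 CPM in control sgRNA, and 148 and 137 CPM in Cd4 sgRNA libraries. Control sgRNA replicate 2 stood above all others, and the wild-type and Cd4 sgRNA values overlapped. The changes against wild type were 0.86 (SE 0.19, adjusted p = 0.023) in control sgRNA and 0.06 (SE 0.19, adjusted p = 0.85) in Cd4 sgRNA cells, and Cd4 sgRNA against control sgRNA gave -0.80 (SE 0.19, adjusted p = 0.12). Over the alternatives this last value ran from -1.06 to -0.47.

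Fdft1, the squalene synthase at the branch to sterols, was at 112 and 115 CPM in wild-type, 142 and 187 CPM in control sgRNA, and 117 and 113 CPM in Cd4 sgRNA libraries. Only the control sgRNA values stood clear of wild type, at 0.53 (SE 0.14, adjusted p = 0.036), and Cd4 sgRNA cells gave 0.02 (SE 0.14, adjusted p = 0.95). The annotated gene overlaps Ctsb, and the sources used here do not state whether the counting used strand. Hsd17b7 was at 22.6 and 24.5 CPM in wild-type, 28.8 and 34.7 CPM in control sgRNA, and 30.8 and 29.4 CPM in Cd4 sgRNA libraries. All transduced libraries lay above wild type, with a change of 0.44 (SE 0.12, adjusted p = 0.045) in control sgRNA cells and 0.36 (SE 0.13, adjusted p = 0.094) in Cd4 sgRNA cells. Hmgcs1, the cytosolic HMG-CoA synthase whose promoter is printed above, was at 307 and 293 CPM in wild-type, 369.8 and 499.6 CPM in control sgRNA, and 320.0 and 278 CPM in Cd4 sgRNA libraries. Its control sgRNA values lay above the other 4 libraries, and its change of 0.53 (SE 0.16, adjusted p = 0.05) against wild type lay at the threshold and did not pass it in edgeR's test. Against control sgRNA, Cd4 sgRNA cells gave -0.54 (SE 0.16, adjusted p = 0.15). DESeq2 called both changes.

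Mvk, Fdps and Nsdhl were the sterol synthesis genes that fell in Cd4 sgRNA cells against wild type. Fdps (chr3:89093588-89101967) was at 435 and 451 CPM in wild-type, 361 and 429 CPM in control sgRNA, and 312 and 291 CPM in Cd4 sgRNA libraries. The Cd4 sgRNA values lay below all others, with a change of -0.56 (SE 0.11, adjusted p = 0.021) against wild type, and the control sgRNA change was -0.17 (SE 0.11, adjusted p = 0.29). Nsdhl, a dehydrogenase of the demethylation steps, was at 159.7 and 155 CPM in wild-type, 109 and 132 CPM in control sgRNA, and 107 and 94.1 CPM in Cd4 sgRNA libraries. Every transduced library was lower than wild type, and the change was -0.65 (SE 0.12, adjusted p = 0.018) in Cd4 sgRNA and -0.38 (SE 0.12, adjusted p = 0.058) in control sgRNA cells. Mvk, the mevalonate kinase, was at 64.2 and 68.9 CPM in wild-type, 48.8 and 58.6 CPM in control sgRNA, and 49.2 and 45.7 CPM in Cd4 sgRNA libraries. Here too the transduced libraries were all lower, at -0.49 (SE 0.12, adjusted p = 0.036) in Cd4 sgRNA and -0.31 (SE 0.12, adjusted p = 0.096) in control sgRNA cells.

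The other 10 sterol synthesis genes passed in no comparison in edgeR's test, while DESeq2 called Pmvk, Lss and Dhcr7 lower in Cd4 sgRNA cells against wild type and Pmvk lower against control sgRNA. Pmvk, which phosphorylates phosphomevalonate, was at 60.9 and 61.2 CPM in wild-type, 40.1 and 68.4 CPM in control sgRNA and 35.7 and 33.6 CPM in Cd4 sgRNA libraries. The control sgRNA replicates thus lay on either side of wild type, and the Cd4 sgRNA change of -0.82 (SE 0.24, adjusted p = 0.06) missed the threshold. Dhcr7, the reductase that yields cholesterol, gave -0.63 (SE 0.18, adjusted p = 0.055) in Cd4 sgRNA cells, and Lss, which cyclises squalene epoxide to lanosterol, gave -0.35 (SE 0.12, adjusted p = 0.08). Acat2, Mvd, Idi1, Cyp51, Tm7sf2, Ebp and Sc5d had changes between -0.33 and 0.34 in both comparisons with wild type.

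Among the SREBP control genes, Srebf1 rose in both kinds of transduced cell. The feedback genes Insig1 and Insig2 were both above wild type in the control sgRNA libraries and both below it in the Cd4 sgRNA libraries. Of these 4 changes, only that of Insig1 in control sgRNA cells passed in edgeR's test. DESeq2 also called Insig2 in control sgRNA cells and Insig1 in Cd4 sgRNA cells. The median change of the 5 genes was 0.54 in control sgRNA and -0.00 in Cd4 sgRNA cells against wild type, and -0.29 between Cd4 sgRNA and control sgRNA cells. Control sgRNA cells had 2 of 5 higher (40.0%, against 14.5% of all tested genes), and Cd4 sgRNA cells 1 of 5, where 9.84% of all tested genes were higher.

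Insig1 (chr5:28071412-28078662) encodes the sterol-regulated retention protein that keeps SCAP in the endoplasmic reticulum. It was at 49.9 and 46.2 CPM in wild-type, 66.2 and 95.8 CPM in control sgRNA, and 32.7 and 26.8 CPM in Cd4 sgRNA libraries. The 3 groups did not overlap, and replicate 2 was the higher control sgRNA library. It rose by 0.75 (SE 0.19, adjusted p = 0.035) in control sgRNA cells, and the Cd4 sgRNA change against wild type was -0.70 (SE 0.20, adjusted p = 0.055). That Cd4 sgRNA change passed in 6 of the 11 alternatives that left out no library, DESeq2 among them. Between Cd4 sgRNA and control sgRNA cells the change was -1.45 (SE 0.20, adjusted p = 0.098), the lowest value of the 37 genes in that comparison. It ran from -1.69 to -1.16 over the alternatives. Of the 11 alternatives that left out no library, it passed the threshold in 1, DESeq2.

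Insig2 (chr1:121304353-121332662), the second retention protein, was at 65.4 and 67.2 CPM in wild-type, 73.1 and 121 CPM in control sgRNA, and 50.8 and 48.1 CPM in Cd4 sgRNA libraries. The order of the groups was that of Insig1, although control sgRNA replicate 1 stood close to wild type. Changes were 0.55 (SE 0.22, adjusted p = 0.12) and -0.42 (SE 0.23, adjusted p = 0.23) against wild type and -0.97 (SE 0.22, adjusted p = 0.12) between the transduced groups, and none passed in edgeR's test. DESeq2 called the first (adjusted p = 0.046) and the last (adjusted p = 8.7e-04).

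Srebf1 (chr11:60199084-60224186), the SREBP gene most tied to fatty acid synthesis, was at 111 and 114 CPM in wild-type, 179 and 147 CPM in control sgRNA, and 179.8 and 182 CPM in Cd4 sgRNA libraries. The transduced libraries all lay above wild type, and of these control sgRNA replicate 2 was lowest. It rose by 0.54 (SE 0.11, adjusted p = 0.019) in control sgRNA and by 0.69 (SE 0.11, adjusted p = 0.013) in Cd4 sgRNA cells. The annotated gene overlaps Rai1. Srebf2, the SREBP gene most tied to sterol synthesis, was at 1119 and 1227 CPM in wild-type, 1286 and 1572 CPM in control sgRNA, and 1199 and 1146 CPM in Cd4 sgRNA libraries, with changes of 0.29 (SE 0.12, adjusted p = 0.13) and -0.00 (SE 0.12, adjusted p = 1) against wild type. Scap, the escort protein gene, was at 137 and 144 CPM in wild-type and 178 and 127 CPM in control sgRNA libraries, and averaged 192 ± 12.4 CPM (SD, n = 2) in Cd4 sgRNA libraries. Its control sgRNA replicates lay on either side of wild type, and its Cd4 sgRNA change of 0.45 (SE 0.16, adjusted p = 0.1) did not pass in edgeR's test but did in DESeq2 (adjusted p = 0.045).

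**Figure D4:**
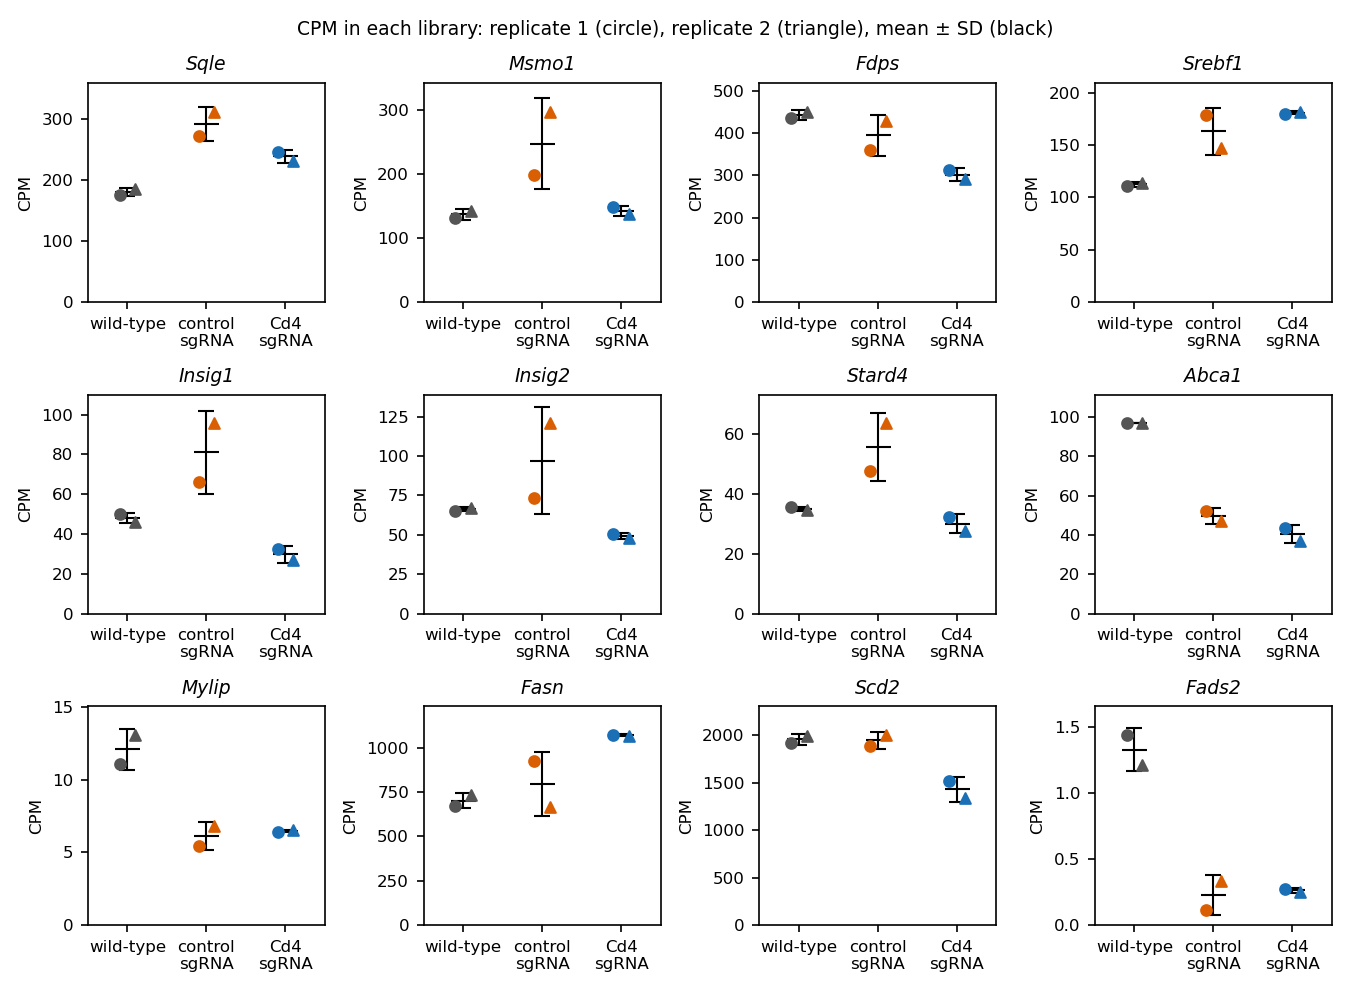
CPM of 12 of the genes in each library on linear axes from 0, with replicate 1 as circles, replicate 2 as triangles and the group mean ± SD (n = 2) in black. Insig1, Insig2, Stard4 and Msmo1 are highest in control sgRNA replicate 2, and Abca1, Mylip and Fads2 are lower in all 4 transduced libraries than in wild type.

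The export gene Abca1 and the oxysterol-linked gene Mylip fell in both transduced groups against wild type, whereas the sterol carrier gene Stard4 rose in control sgRNA cells. Over the 6 transport genes the median change was -0.63 in control sgRNA and -0.52 in Cd4 sgRNA cells against wild type, with 1 higher and 2 lower in the former (14.5% and 13.5% of all tested genes) and 0 higher and 2 lower in the latter (9.84% and 10.7%). Between Cd4 sgRNA and control sgRNA cells it was -0.12.

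Abca1 (chr4:53030789-53159988) encodes the transporter that loads cholesterol onto apolipoprotein A-I. It was at 96.9 and 96.8 CPM in wild-type, 52.4 and 46.9 CPM in control sgRNA, and 43.5 and 37.0 CPM in Cd4 sgRNA libraries. Wild type stood far above all transduced libraries, with changes of -0.96 (SE 0.11, adjusted p = 0.0035) in control sgRNA and -1.27 (SE 0.11, adjusted p = 0.0025) in Cd4 sgRNA cells. These were the smallest p-values of the 37 genes in both comparisons. Its partner Abcg1, which exports cholesterol to lipoproteins, was at 15.0 and 15.8 CPM in wild-type, 11.6 and 4.34 CPM in control sgRNA, and 14.0 and 10.1 CPM in Cd4 sgRNA libraries. The control sgRNA replicates differed by 1.37 on the log2 scale, the widest gap of the 37 genes, and the changes of -0.93 (SE 0.43, adjusted p = 0.16) and -0.36 (SE 0.45, adjusted p = 0.6) did not pass in edgeR's test. DESeq2 called the first (adjusted p = 0.046).

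Mylip (chr13:45389742-45411940), an LXR-controlled ubiquitin ligase that marks lipoprotein receptors for degradation, was at 11.1 and 13.1 CPM in wild-type, 5.45 and 6.79 CPM in control sgRNA, and 6.41 and 6.51 CPM in Cd4 sgRNA libraries. Both transduced groups lay below wild type and overlapped each other. The changes were -0.97 (SE 0.17, adjusted p = 0.01) and -0.89 (SE 0.18, adjusted p = 0.021). Of the LXR receptor genes themselves, Nr1h2 was at 51.7 to 77.2 CPM and Nr1h3 at 0.135 to 0.569 CPM over the 6 libraries, and neither passed in any comparison in edgeR's test.

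Stard4, which carries cholesterol between membranes, was at 35.6 and 34.6 CPM in wild-type, 47.8 and 63.8 CPM in control sgRNA, and 32.4 and 27.8 CPM in Cd4 sgRNA libraries. The 3 groups did not overlap. Its change was 0.67 (SE 0.16, adjusted p = 0.028) in control sgRNA cells and -0.23 (SE 0.16, adjusted p = 0.36) in Cd4 sgRNA cells, and -0.89 (SE 0.16, adjusted p = 0.1) between them. The lysosomal cholesterol exporters differed from each other. Npc1 was at 37.9 and 38.4 CPM in wild-type, 38.5 and 44.1 CPM in control sgRNA and 43.0 and 43.4 CPM in Cd4 sgRNA libraries, and Npc2 was at 142 and 141 CPM, 89.4 and 136 CPM, and 91.3 and 85.9 CPM in the same order. Every transduced library lay above wild type for Npc1 and below it for Npc2, but neither passed in edgeR's test, with adjusted p = 0.055 for the Npc2 change of -0.68 (SE 0.19) in Cd4 sgRNA cells. That Npc2 change passed in 5 of the 11 alternatives that left out no library, DESeq2 among them (adjusted p = 0.0045).

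Fatty acid synthesis genes moved in both directions. Of the 8 genes, control sgRNA cells had 1 higher and 1 lower than wild type (12.5% each, close to the 14.5% and 13.5% of all tested genes), and Cd4 sgRNA cells 2 higher and 4 lower (25.0% and 50.0%, against 9.84% and 10.7%). The median change was -0.18 and -0.34 against wild type and 0.01 between the transduced groups. Their summed level was 4449 and 4639 CPM in wild-type, 4519 and 4416 CPM in control sgRNA, and 4223 and 3871 CPM in Cd4 sgRNA libraries.

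Acaca, the acetyl-CoA carboxylase that commits acetyl-CoA to fatty acids, was at 249.6 and 252 CPM in wild-type, 321 and 332 CPM in control sgRNA, and 313 and 302 CPM in Cd4 sgRNA libraries. All transduced libraries were higher, by 0.38 (SE 0.080, adjusted p = 0.018) and 0.29 (SE 0.080, adjusted p = 0.048). The annotated gene overlaps Tada2a. Fasn, the fatty acid synthase (chr11:120805958-120825166), was at 672 and 731 CPM in wild-type, 923 and 666 CPM in control sgRNA, and 1073 and 1065 CPM in Cd4 sgRNA libraries. The Cd4 sgRNA libraries agreed closely and lay above the rest, while the control sgRNA replicates lay on either side of wild type. Its changes were 0.61 (SE 0.16, adjusted p = 0.045) in Cd4 sgRNA and 0.18 (SE 0.16, adjusted p = 0.43) in control sgRNA cells. In voomLmFit the Acaca and Fasn changes of the Cd4 sgRNA cells did not pass. Acly, which supplies cytosolic acetyl-CoA from citrate, moved the other way. It was at 658 and 654 CPM in wild-type, 553 and 565 CPM in control sgRNA, and 489 and 452 CPM in Cd4 sgRNA libraries, with the groups in that order and without overlap. The changes were -0.23 (SE 0.085, adjusted p = 0.09) and -0.48 (SE 0.085, adjusted p = 0.016).

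The stearoyl-CoA desaturase genes fell in Cd4 sgRNA cells. Scd2 was at 1917 and 1997 CPM in wild-type, 1886 and 2008 CPM in control sgRNA, and 1520.2 and 1338 CPM in Cd4 sgRNA libraries. Scd1 was at 677 and 716 CPM in wild-type, 583 and 621 CPM in control sgRNA, and 558 and 466 CPM in Cd4 sgRNA libraries. For Scd2 control sgRNA overlapped wild type, and for Scd1 it lay between the other groups. Changes against wild type were -0.45 (SE 0.10, adjusted p = 0.029) for Scd2 and -0.44 (SE 0.11, adjusted p = 0.04) for Scd1 in Cd4 sgRNA cells, and -0.01 (SE 0.10, adjusted p = 0.96) and -0.21 (SE 0.11, adjusted p = 0.2) in control sgRNA cells.

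Fads2, the delta-6 desaturase of polyunsaturated fatty acids, had the widest change of the 37 genes against wild type and the lowest level. It was at 1.44 and 1.21 CPM in wild-type, 0.117 and 0.334 CPM in control sgRNA, and 0.275 and 0.249 CPM in Cd4 sgRNA libraries, from 67 and 26, 13 and 27, and 9 and 11 counts. Wild type stood above all transduced libraries. The changes were -2.68 (SE 0.45, adjusted p = 0.0097) and -2.38 (SE 0.52, adjusted p = 0.028). Its neighbour on the chromosome Fads1, the delta-5 desaturase (chr19:10182877-10196874, with Fads2 at chr19:10062765-10101503), was at 142 and 151 CPM, 131 and 133 CPM, and 146 and 139.6 CPM in the same order, with changes of -0.14 (SE 0.083, adjusted p = 0.23) and -0.03 (SE 0.083, adjusted p = 0.8). Elovl6, which elongates palmitate, gave -0.36 (SE 0.15, adjusted p = 0.13) and -0.23 (SE 0.16, adjusted p = 0.32).

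Other genes of these pathways, from lists that are not among the 37, were tested in the same fit. Of 24 other sterol genes, 21 were tested, of which 5 were higher and 5 lower in control sgRNA (23.8% each, against 14.5% and 13.5% of all tested genes) and 4 higher and 0 lower in Cd4 sgRNA cells against wild type (19.0% and 0%, against 9.84% and 10.7%). Among those higher in both comparisons were the SREBP protease gene Mbtps2 (0.99, SE 0.10, and 0.81, SE 0.10), the sterol esterifying enzyme gene Soat1 (1.03, SE 0.12, and 0.46, SE 0.12) and the lipoprotein receptor gene Scarb1 (0.38, SE 0.085, and 0.78, SE 0.086). Lpcat3, a phospholipid acyltransferase gene, was higher in control sgRNA cells (0.31, SE 0.086). The lower ones there included Spring1 (-0.94, SE 0.18), Erlin2 (-0.56, SE 0.15), Nceh1 (-0.48, SE 0.13) and Rnf139 (-0.40, SE 0.094), which encodes a ubiquitin ligase of the endoplasmic reticulum. Of the 11 isoprenoid branch genes, Rabggtb was higher (0.97, SE 0.17) and the farnesyltransferase gene Fnta lower (-0.53, SE 0.090) in control sgRNA cells (9.09% each, below the 14.5% and 13.5% of all tested genes). In Cd4 sgRNA cells against wild type 0 passed in edgeR's test. There 2 of the 11 were higher at an unadjusted p under 0.05, against 2284 of all 12430 tested genes. DESeq2 called 1 higher (14.0% of all).

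Of 25 other fatty acid genes, 22 were tested, with 5 higher and 4 lower in control sgRNA cells (22.7% and 18.2%, against 14.5% and 13.5% of all tested genes) and 1 in each direction in Cd4 sgRNA cells against wild type (4.55%, against 9.84% and 10.7%). The phosphatidate phosphatase gene Lpin1 was at 19.8 and 18.7 CPM in wild-type, 46.4 and 82.3 CPM in control sgRNA, and 20.2 and 16.0 CPM in Cd4 sgRNA libraries. Only the control sgRNA libraries stood apart, at 1.74 (SE 0.28, adjusted p = 0.0091) against wild type, and Cd4 sgRNA against control sgRNA gave -1.83 (SE 0.28, adjusted p = 0.1). Acacb, the mitochondrial acetyl-CoA carboxylase gene (1.31, SE 0.15), Acsl3, an acyl-CoA synthetase gene (0.69, SE 0.11), and the elongase genes Elovl5 (0.50, SE 0.11) and Elovl7 (3.52, SE 0.90, at 0.0467 to 1.55 CPM) were also higher in control sgRNA cells. Hsd17b12 (-0.73, SE 0.097), Elovl1 (-0.37, SE 0.087), Acsl5 (-0.32, SE 0.081) and Mcat (-0.35, SE 0.10) were lower. In Cd4 sgRNA cells Acsl3 was higher (0.47, SE 0.11) and Tecr, a reductase of chain elongation, lower (-0.54, SE 0.12). When the transduced groups were compared, 0 genes of these 3 lists passed in edgeR's test. At an unadjusted p under 0.05, 6, 3 and 2 were higher in Cd4 sgRNA cells (11.3% of all tested genes) and 5, 1 and 6 lower (13.6%). DESeq2 called 3, 2 and 1 higher (4.25% of all tested genes) and 2, 1 and 4 lower (7.09%).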

How the data were processed

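Rsubread was used by the authors for alignment to mm10 and featureCounts for the counting, with the inbuilt RefSeq genes. What they deposited are unnormalized counts of whole reads by Entrez identifier, in 1 file per library (a combined table was not used), and whether strand was used is not given in the sources used here. RefSeq of GRCm38.p6, the mm10 build, gave symbols and positions and named 25275 of 27179 identifiers. The filters of the study were then applied (15 mitochondrial and 33 rRNA genes were removed besides those without a symbol), and filterByExpr with default settings left 12430 genes with 86.0% to 95.0% of each library's counts. CPM was computed here from counts and TMM library sizes, and per-length levels use the deposited gene length. A count of 3, taken as the floor, is 0.0270 to 0.140 CPM.

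The test was edgeR 4.0.16 (glmQLFit and glmQLFTest, robust) with a term for each group fitted on all 6 libraries together. It was two-sided and adjusted by Benjamini and Hochberg over all tested genes at 0.05, in R 4.3.3. The SE was derived as the log2 fold change over the square root of F. An exact permutation test of 2 against 2 libraries cannot go below p = 0.333 and was not used. Alternatives were voomLmFit of limma 3.58.1, which is the study's own test, DESeq2 1.42.0, RLE size factors, library size only, other filters, the legacy quasi-likelihood fit, only the 2 groups compared, thinned control sgRNA counts, a replicate block and leaving out each library in turn. The fits were checked on simulated counts. The genes and all lists (other sterol, isoprenoid and fatty acid genes, low oxygen, B cell, T cell and macrophage markers) were chosen with earlier results of these data known, so no list is independent evidence. All 37 genes could be named, with values in every library for those past the threshold and for 6 pairs of related genes, and of other pathway genes up to 5 per list and comparison by p. The values of 2 of these other genes are not reported here. Msmo1, Insig1, Abca1 and Hmgcs1 promoters, and the values of Hmgcs1, Pmvk, Scap and Lpin1 by library beyond that rule, were chosen after values were seen. No promoter met the planned rule of a called gene with the sterol element.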

Additional observations from a re-analysis of the deposited data

How the results depend on the processing

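Results of the single genes were followed in the 3 comparisons under alternatives that left out no library. Of these, 1147 stayed on the same side of the threshold, 50 passed newly and 21 no longer passed. Most of the 1147 were genes not past the threshold, since 26, 24 and 37 of the 37 genes had not passed in the 3 comparisons. Only a called gene could lose its call, so the 1147 do not measure how well calls held. Genes past the threshold kept their direction under these alternatives. Some not past it changed sign, such as Cyp51 and Scd2 with library size only (control sgRNA against wild type). The count of genes higher in control sgRNA cells against wild type was 8 and fell to 1 with only the 2 groups compared, and the count of lower ones was 3 and 5 in DESeq2. For Cd4 sgRNA cells against wild type the count of higher genes was 4, and 2 in voomLmFit, 7 with only the 2 groups compared and 1 with the replicate block, and the count of lower genes was 9, and 14 in DESeq2 and 22 with only the 2 groups compared. For the transduced groups against each other DESeq2 called 9 lower where edgeR called 0. With 1 library left out, these counts ran from 0 to 16 higher and 0 to 16 lower (control sgRNA against wild type), 0 to 7 and 0 to 22 (Cd4 sgRNA against wild type) and 0 to 6 and 0 to 22 (Cd4 sgRNA against control sgRNA). Where this left a group with 1 library, that library was assumed to vary like the other groups. Abca1 lost its call in Cd4 sgRNA cells only without wild-type replicate 1. Without control sgRNA replicate 1, Pmvk (-0.60 to 0.19 over the libraries left out) and Cyp51 (-0.17 to 0.17) changed sign in control sgRNA cells and passed as higher. The median of the sterol genes ran from -0.13 to 0.15 in control sgRNA and from -0.18 to -0.10 in Cd4 sgRNA cells against wild type, and that of the fatty acid genes from -0.18 to -0.11 in control sgRNA cells (-0.13 with library size only) and from -0.18 to 0.05 between the transduced groups. The cause of these shifts was not tested. Replicate numbers did not pair the libraries, as deviations from the group means correlated at 0.02, -0.03 and -0.14 across genes. The replicate block left 6 genes higher and 3 lower for control sgRNA cells, and 1 higher and 6 lower in Cd4 sgRNA cells. It left 0 in both directions between them, and a block with crossed numbers, chosen after seeing the data, also gave 0. The share of all tested genes under the block is not given, so these counts cannot be set against it. The stricter filter removed Fads2. With 2 libraries per group and a wide gap between the control sgRNA libraries, the counts of calls depend on which libraries set the spread, and fold changes of Fads2 rest on 9 to 67 counts per library.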
